A study of Mus musculus with 96 samples.

Results

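Single erythroid progenitors from the upper of 2 intermediate sort gates were compared with those from the lower one, gene by gene and cell by cell. A cell counted when its well held 50000 or more reads in genes, which kept 24 of 24 wells of the upper gate (labelled Intermediate_50-60) and 21 of 24 of the lower gate (labelled Intermediate_25-35). These 45 cells are part of the 96 wells of 1 plate. All came from fetal liver of C57/Bl6J embryos taken at embryonic day 14.5, with no genetic change or treatment named in the labels. Red cells had been lysed, and cells carrying CD3e, CD45R, Ly-6G, CD11b, Ter119, Sca-1, CD16/32 or CD41 had been removed with magnetic beads before staining for Kit, CD71 and CD24. The upper gate took cells at 50 to 60% and the lower gate cells at 25 to 35% of the CD71/CD24 scale, and burst-forming (BFUE) and colony-forming (CFUE) progenitors filled the rest of the plate. Since each gate filled 3 plate columns of its own, gate and plate column cannot be told apart. No label ties a cell to an animal or a pool of animals. Each gate is therefore 1 sample, no difference below has a replicate check, and no test was made.

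Red cell progenitors pass from the burst-forming to the colony-forming stage before they become erythroblasts, and along the way they depend increasingly on erythropoietin and take up iron through the transferrin receptor CD71. Genes for hemoglobin, for heme and for the spectrin-based skeleton under the red cell membrane come on during this path, while genes shared with other blood lineages are shut down. In the mouse embryo the fetal liver is the main site of this process.

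Values are CPM, a gene's reads per 1000000 reads in genes, either of 1 cell or of all reads of a gate added up. CPM is a share of a cell's reads, so total RNA per cell is not measured. Every interval given is exact and at 95%. Those of CPM and ratios cover counting error alone. Those of shares of cells treat the cells of a gate as independent draws, and no interval measures spread between animals. Smart-seq2 reads, made from full-length cDNA without molecular identifiers, are not independent molecules. The upper cells held 1268042 to 1815656 reads (median 1504904) and the lower cells 1022381 to 3196597 (median 1487064), with medians of 9422 and 9283 genes. Summed reads were 36422769 and 31059327. The median share of mitochondrial reads was 1.87% and 1.86%.

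The stained genes and the defining transcription factors were checked first. Cd24a, 1 of the 2 genes that set the gates, ran from 404.5 through a median of 716.5 to 1610 CPM in the upper cells and from 165.6 through 436.6 to 710.3 CPM in the lower cells. No lower cell reached the upper median, and the sums differed 1.84-fold (interval 1.80 to 1.88). Tfrc, which encodes CD71, was only 1.23-fold higher in the upper gate (interval 1.21 to 1.26), with medians of 645 and 518.5 CPM and wide overlap. In the top of the plate (rows A to D, called the top rows) this ratio was 1.43, and in the bottom rows (E to H) it was 1.06. Kit, the receptor for stem cell factor, was 1.73-fold lower (interval 1.69 to 1.76), with upper cells at 81.6, 414 and 812 CPM (lowest, median and highest) and lower cells at 360, 703.5 and 1354 CPM. As stained markers these 3 genes check the sort and are no findings. Gata1 and Klf1, the central transcription factors of red cell formation, and Epor, the erythropoietin receptor, each had 10 or more reads in all 24 upper and all 21 lower cells.

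Markers of other cell types were mostly below the level called measured, with those of mast cells and hepatoblasts as the exceptions. No gene of the megakaryocyte, neutrophil and monocyte, lymphoid, macrophage, or endothelial and stromal lists reached 10 CPM in the summed reads of either gate. The summed level of the 14 neutrophil and monocyte markers ran from 0 through 0.712 to 18.4 CPM in upper cells and from 0 through 4.61 to 49.7 CPM in lower cells. That of the 12 macrophage markers had a median of 0 in both gates and a highest cell of 27.6 and 23.8 CPM, and 5 of the 12 (C1qa, Adgre1, Timd4, Marco and Cd163) had no read in either gate. Mast cell and basophil markers summed to 0.573, 46.8 and 147.5 CPM (lowest, median and highest) in upper cells and 21.3, 84.0 and 233 CPM in lower cells. Their 1 measured member was Srgn, serglycin, a granule proteoglycan of many blood cells (1.67-fold lower in the upper gate), and 6 of the 10 (Fcer1a, Mcpt8, Prss34, Gzmb, Cma1 and Tpsb2) had no read in either gate. Hepatoblast markers, from the cells that surround progenitors in fetal liver, summed to 19.3, 121 and 609 CPM in upper cells and 10.6, 79.4 and 269 CPM in lower cells. Among them Afp, alpha-fetoprotein, was 2.21-fold higher in the upper gate and Alb, albumin, 1.25-fold. The part of these markers in the results below was not tested.

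The promoters of 6 genes that the results turn on are shown first, to put named genes in their genomic place. Sequences and starts are from RefSeq on GRCm38.p6, read 5′ to 3′ on the gene's strand, and cover the bases before the start that no GENCODE M21 exon overlaps. Capitals mark AGATAA or TGATAA, the motif that GATA factors recognise, and CCNCNCCC, the CACC-type motif of Klf1 and its relatives, on either strand (TTATCT is AGATAA on the other strand); matches of CCNCNCCC can overlap each other. The first 3 genes were higher in the upper gate and the last 3 lower.
Hba-a1, alpha globin (chr11:32283422-32283510, plus strand): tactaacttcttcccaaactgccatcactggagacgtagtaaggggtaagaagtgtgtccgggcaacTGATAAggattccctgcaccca
Epb42, protein 4.2 (chr2:121037073-121037127, minus strand): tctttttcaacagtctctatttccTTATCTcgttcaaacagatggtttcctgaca
Sptb, beta spectrin (chr12:76710548-76710797, minus strand): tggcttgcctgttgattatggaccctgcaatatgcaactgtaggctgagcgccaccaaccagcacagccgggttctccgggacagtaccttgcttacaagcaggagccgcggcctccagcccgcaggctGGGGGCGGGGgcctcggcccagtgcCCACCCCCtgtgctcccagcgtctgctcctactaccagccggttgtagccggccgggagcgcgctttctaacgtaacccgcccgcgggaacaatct
Arhgdib, a GDP-dissociation inhibitor (chr6:136941900-136942149, minus strand): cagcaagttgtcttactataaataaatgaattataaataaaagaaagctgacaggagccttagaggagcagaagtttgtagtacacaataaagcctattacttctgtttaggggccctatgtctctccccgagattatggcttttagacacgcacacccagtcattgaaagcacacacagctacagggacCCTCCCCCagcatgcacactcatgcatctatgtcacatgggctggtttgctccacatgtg
Apoe, apolipoprotein E (chr7:19699189-19699438, minus strand): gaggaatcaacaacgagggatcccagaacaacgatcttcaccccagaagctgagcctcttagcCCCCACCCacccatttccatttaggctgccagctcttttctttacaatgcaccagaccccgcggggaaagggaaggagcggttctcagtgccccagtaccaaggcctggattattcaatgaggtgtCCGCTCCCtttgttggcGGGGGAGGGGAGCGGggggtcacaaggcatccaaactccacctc
Gata2, a GATA factor of early progenitors (chr6:88193641-88193890, plus strand): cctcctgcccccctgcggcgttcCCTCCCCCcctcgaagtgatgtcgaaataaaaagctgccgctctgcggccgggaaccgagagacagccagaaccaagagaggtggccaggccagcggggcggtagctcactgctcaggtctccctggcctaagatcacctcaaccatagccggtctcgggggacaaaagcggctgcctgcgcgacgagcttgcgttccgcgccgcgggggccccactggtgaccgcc

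The GATA motif stood in the 250 bases before the start for Hba-a1, Epb42 and Hemgn but not for Sptb, Arhgdib, Apoe or Gata2. Motifs were counted over the full 250 bases, exon overlaps included. For Hba-a1 and Epb42 an exon overlaps the last 161 and 195 of these bases, so the printed stretches end before them. Their matches start 183 and 226 bases before the RefSeq start. For Hemgn the match starts 13 bases before the RefSeq start, within 53 bases that an exon overlaps. That RefSeq start is 9323 bases from the GENCODE start. Among the 54 genes open to being named (rule below), 20 of 27 higher and 16 of 27 lower ones matched a RefSeq start. The GATA motif was held by 4 of those 20 (20%) and by 0 of those 16, against 8.69% of 6134 measured genes and 16.9% of all 27025 genes. CCNCNCCC was held by 14 of the 20 (70%) and 14 of the 16 (87.5%), against 63.4% of measured and 45.6% of all genes. Over every gene 2-fold or more apart the GATA shares were 12.3% of 171 higher and 7.84% of 204 lower genes. A match is a string of letters and says nothing of binding.

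Most genes stood at nearly the same level in both gates, and no gene told every cell apart. Of 7807 genes with 10 CPM or more in either gate, called measured here, 212 were 2-fold or more higher in the upper gate (2.72%) and 256 were 2-fold or more lower (3.28%). At 1.5-fold, the mark used for gene lists, these shares were 7.34% and 9.27%. The median log2 ratio of all measured genes was -0.02. For 0 genes did every upper cell lie above every lower cell (0%), and for 0 the reverse (0%). Across the genes past 2-fold, the upper cell had the higher CPM in a median 67.9% of all upper-lower pairs for higher genes and 31.8% for lower genes, with ties counted as 1 of 2. This percent of pairs is given below for single genes, and 50% would mean that the gates do not differ in order.

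Where the reads sat mattered for many of these genes. Among the 212 higher genes, 202 kept their direction in the top as well as the bottom rows, and 103 passed 2-fold in both. Among the 256 lower genes these counts were 247 and 116. In 53 of the higher and 75 of the lower genes a single cell held more than 25% of the reads of its gate. Named genes were therefore held to 50 CPM in the higher gate, 10 or more reads in 50% of its cells, no cell above 25% of its reads, 2-fold also in the mean over cells, and 1 direction in top and bottom rows. That left 54 genes, 27 in each direction.

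The globins had the highest median ratio of any list. The 3 upper cells highest for Hba-a1 held 41.1 to 61.9% of the upper reads of each measured globin, though for the beta globins most of this was 1 cell. Hba-a1 (chromosome 11, 32283511 to 32284465) ran from 15.96 through a median of 80.4 to 901 CPM in upper cells and from 1.46 through 11.3 to 59.4 CPM in lower cells. Every upper cell lay above the lower median and 16 of 24 lay above every lower cell, yet the lowest upper cells fell among the lower ones. The summed ratio was 7.40-fold (161.5 against 21.8 CPM, interval 6.83 to 8.02), and the upper cell was higher in 90.5% of pairs. Well H8 of the upper gate stood at 901, A8 at 770 and E9 at 657 CPM, while the next highest upper cell stood at 140.2 CPM. These 3 cells held 61.1% of the upper reads of Hba-a1 and 12.5% of all upper reads, and without them, a setting chosen after seeing the data, the ratio was 3.29-fold. They were also the highest of the gate for Hba-a2 and Epb42, and held Kit at 105 to 237 CPM against a median of 447.5 CPM in the other 21.

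All 4 measured globins were 1.5-fold or more higher (100% against 7.34% of all measured genes). Their list median was 2.70 on the log2 scale (1.76 without those 3 cells). Hba-a2, the near-identical second alpha gene, ran from 2.17 through 13.5 to 89.5 CPM in upper cells and from 0 through 1.32 to 12.02 CPM in lower cells. It was 9.42-fold higher and higher in 96.0% of pairs, the clearest order of any gene described here, and 13 upper cells lay above all lower cells. The adult beta globins Hbb-bs (20.7 against 4.54 CPM) and Hbb-bt (17.6 against 3.09 CPM) were 4.55-fold and 5.69-fold higher, though a single cell held 48.1% and 45.6% of their upper reads. That cell was well A8 (234.7 and 189.3 CPM). For Hbb-bt wells E9 and H8 stood at 7.87 and 2.29 CPM, below C7 (102.9 CPM). For Hbb-bs H8 stood at 23.5 CPM, below E8 (46.6 CPM). In the top rows their ratios were 8.21 and 8.64, and in the bottom rows 2.75 and 2.45. Reads shared by Hba-a1 and Hba-a2, or by Hbb-bs and Hbb-bt, cannot be assigned with certainty, so the split within each pair is uncertain. Of the 10 measured late erythroblast markers 7 were 1.5-fold or more higher (70% against 7.34% of all measured genes) and 0 lower. Their summed level ran from 133 through 417 to 1656 CPM in upper cells and from 181 through 294 to 581 CPM in lower cells. Their part in the result was not tested.

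Epb42 (chromosome 2, 121017891 to 121037072), which ties the band 3 anion exchanger to the skeleton, differed in how many cells held it and in how high it reached. It ran from 0 through 55.6 to 445 CPM in upper cells and from 0 through 0.571 to 76.4 CPM in lower cells, and 21 of 24 upper cells (87.5%, exact interval 67.6 to 97.3%) but 7 of 21 lower cells (33.3%, interval 14.6 to 57.0%) had 10 or more reads. The other 14 lower cells were at or near 0, as were 3 upper cells, so the gates overlapped at low levels, and 9 upper cells lay above every lower cell. The ratio was 6.46-fold (98.0 against 15.2 CPM, interval 5.87 to 7.13), or 4.13-fold without wells A8, E9 and H8.

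The rest of the red cell membrane skeleton followed in part. Of 12 measured members 6 were 1.5-fold or more higher and 0 lower (50% against 7.34% of all measured genes), with a median log2 ratio of 0.52 (0.97 in the top rows, 0.58 in the bottom rows). Sptb, beta spectrin (chromosome 12, 76580488 to 76710547), ran from 14.8 through 86.3 to 245 CPM in upper cells and from 0 through 22.5 to 104.5 CPM in lower cells, 3.21-fold higher in sum (interval 2.98 to 3.45). Most upper cells lay above most lower ones, with the upper cell higher in 82.7% of pairs and 10 upper cells above all lower ones. Dmtn, the actin-bundling protein dematin, was 4.82-fold higher and Tmod1, tropomodulin, which caps actin filaments, 3.63-fold. For Dmtn the ratio was 12.1 in the top rows and 3.55 in the bottom rows, and for Tmod1 8.49 and 1.96. Tmod1 stood at 188.7 CPM in the upper cell of well A8 and at 85.9 CPM in the next highest upper cell (H8). Add2, beta adducin, stood just at the mark at 1.502-fold. Add1 and Add3, the adducins found in most tissues, had ratios on the other side of 1, 1.49-fold and 1.43-fold lower.

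Surface proteins of red cells showed a few large ratios among many small ones. Of 15 measured genes 5 were 1.5-fold or more higher (33.3% against 7.34% of all measured genes) and 0 lower. The list median was 0.42 on the log2 scale (0.71 in the top rows, 0.25 in the bottom rows). Cldn13, an erythroid claudin (chromosome 5, 134914249 to 134915526), ran from 42.5 through 195 to 630 CPM in upper cells and from 0.947 through 58.5 to 208 CPM in lower cells, 3.23-fold higher in sum (interval 3.08 to 3.38). All 24 upper cells and 20 of 21 lower cells had 10 or more reads, and 22 of 24 upper cells lay above the lower median. Kel (1.76-fold), Rhd (1.64-fold) and Car2 (1.53-fold) were also among the 5. Car2, carbonic anhydrase 2, is a cytosolic enzyme that the list held beside the surface proteins. Rhag, Ermap, Cd47 and Slc14a1 lay between 1.07-fold and 1.34-fold.

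Heme synthesis genes were higher by smaller amounts. Of 15 measured members 8 were 1.5-fold or more higher and 0 lower (53.3% against 7.34%), with a list median of 0.60 on the log2 scale (0.58 in the top rows, 0.54 in the bottom rows). Slc25a37, the mitochondrial iron importer mitoferrin 1, was 1.91-fold higher, Cpox 1.71-fold, Uros 1.61-fold and Fech, which inserts the iron, 1.52-fold. Alas1, the first enzyme in its form of all tissues, was 1.25-fold lower and Slc25a39 1.45-fold lower. Alas2, the red cell form of that enzyme, was too low to be called measured, at 7.77 (upper) against 1.87 CPM (lower), 4.16-fold higher. Without wells A8, E9 and H8 the count was 4 and the median 0.42.

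Iron handling genes stood closer together. Of 17 measured genes 3 were higher (17.65% against 7.34% of all measured genes) and 0 lower, with a list median of 0.24 (log2). The 3 were Glrx5, an iron-sulfur cluster protein (1.68-fold), Pcbp1, an iron chaperone (1.54-fold), and Slc11a2, the endosomal iron transporter (1.53-fold). The ferritin genes Fth1 and Ftl1 had ratios of 1.36 and 1.18, and Steap3 one of 1.20.

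**Figure D1:**
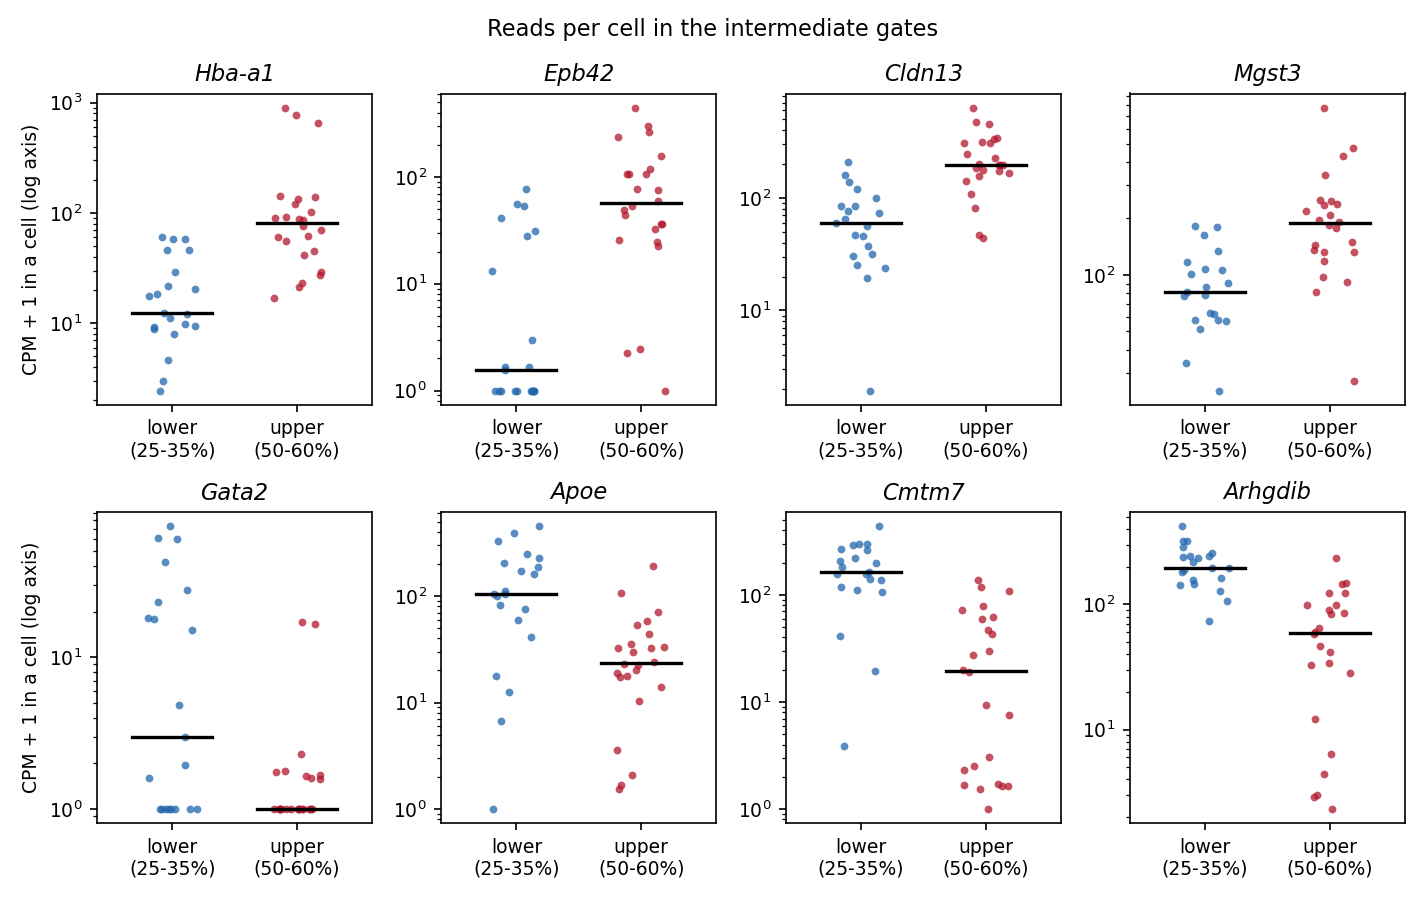
CPM plus 1 of 8 genes in each cell (log axis) of the lower (21 points) and upper (24 points) intermediate gates, with a bar at the median and sideways scatter for legibility only. Each gene's gates overlap; 3 upper cells stand apart for Hba-a1 at 657 to 901 CPM, and the lower cells of Epb42 divide into 7 with 10 or more reads and 14 at or near 0.

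Most erythroid transcription factors stayed within 1.5-fold. Of 20 measured members 3 were higher (15% against 7.34% of all measured genes) and 0 lower (against 9.27%), with a list median of 0.12 (log2). The 3 were E2f2, a cell cycle factor (2.96-fold), Hemgn, hemogen (2.65-fold), and Mllt3 (1.95-fold). E2f2 stood at 125.8 CPM in the upper cell of well A8 and at 48.1 CPM in the next highest upper cell (H9). Hemgn ran from 24.7 through 195 to 1142 CPM in upper cells and from 0.929 through 42.7 to 391 CPM in lower cells. Of 24 upper cells 23 lay above the lower median, though its ratio was 4.85 in the top rows and 1.56 in the bottom rows. Gata1 had a ratio of 1.09, Klf1 of 1.20, Gfi1b of 1.005 and Bcl11a of 1.09. Short of the mark were Zbtb7a (1.45), Tal1 (1.41), Klf3 (1.39), Nfe2 (1.32) and Ldb1 (1.31). Myb, a factor of early progenitors, was 1.47-fold lower, Foxo3 1.37-fold and Klf13 1.27-fold. Of 12 genes of erythropoietin and Stat5 signalling 2 were higher (Gab1 and Stat5b, 1.53-fold and 1.501-fold) and 1 lower (the kinase Lyn, 1.72-fold, with a ratio of 1.01 in the top rows), while Epor itself had a ratio of 1.21. The shares higher and lower in this list were 16.7% and 8.33%, against 7.34% and 9.27% of all measured genes.

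Further named genes belonged to no erythroid list. Scd1, stearoyl-CoA desaturase, which makes monounsaturated fatty acids, ran from 0 through 55.0 to 215.5 CPM in upper cells and from 0 through 1.89 to 66.2 CPM in lower cells, 5.01-fold higher in sum (interval 4.54 to 5.55). Counts of 10 or more reads were present in 21 of 24 upper and 9 of 21 lower cells, and 11 upper cells lay above every lower cell. Scd2, its relative, had a ratio of 0.965. In the cholesterol and fatty acid list of 17 genes, 2 were higher (Scd1 and Mgll) and 3 lower, Insig1 (1.58-fold) and Acsl6 (1.56-fold) among them. These shares were 11.76% and 17.65%, against 7.34% and 9.27% of all measured genes. The remaining largest ratios were those of Redrum, an erythroid long noncoding RNA (3.81-fold, but 2.70 in the top rows and 6.32 in the bottom rows), Tprgl (3.25-fold), Rab3il1 (2.87-fold, 1.88-fold without wells A8, E9 and H8), Cep250, a centrosomal protein (2.76-fold), Smim5 (2.53-fold), Tns1, tensin 1 (2.45-fold), Mgst3, a microsomal glutathione transferase (2.39-fold), Rgcc (2.34-fold) and Abcb4, a phospholipid transporter (2.26-fold, but 1.34 in the top rows and 3.61 in the bottom rows).

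Gata2 (chromosome 6, 88193891 to 88207032), which is replaced by Gata1 as red cell formation proceeds, had no read or few reads in most upper cells. It ran from 0 through a median of 0 to 16.1 CPM in upper cells and from 0 through 1.98 to 72.4 CPM in lower cells. At least 10 reads were held by 2 of 24 upper cells (8.33%, exact interval 1.03 to 27.0%), those of wells A9 and B7, and by 9 of 21 lower cells (42.9%, interval 21.8 to 66.0%). No read was found in 15 upper and 8 lower cells, and 8 lower cells lay above every upper cell. The summed level was 10.5-fold lower (1.48 against 15.6 CPM, interval 7.94 to 14.2), from only 54 and 485 reads, and the fold was 4.17 in the top rows and 73.3 in the bottom rows.

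Apoe (chromosome 7, 19696109 to 19699188), a lipid carrier, ran from 0.551 through 22.5 to 191 CPM in upper cells and from 0 through 104.5 to 452 CPM in lower cells. The gates overlapped over most of their range, since 20 of 24 upper and 19 of 21 lower cells had 10 or more reads, but only 2 upper cells passed the lower median. It was 3.92-fold lower in the upper gate (34.9 against 137 CPM, interval 3.68 to 4.18).

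Other genes of stem and multipotent cells were few. Of 26 listed only 6 were measured, of which 3 were 1.5-fold or more lower (50% against 9.27% of all measured genes) and 0 higher. The list median was -0.56 on the log2 scale (-0.25 in the top rows, -0.86 in the bottom rows). Beside Gata2 the lower members were Hhex (2.02-fold lower) and Etv6 (1.52-fold lower, but with a ratio of 1.31 in the top rows and 0.388 in the bottom rows). Runx1 and Adgrg1 had ratios of 1.02 and 0.965.

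Genes of the cell cortex were often lower. Of 24 measured genes for actin, annexins and membrane scaffolds 11 were 1.5-fold or more lower in the upper gate and 0 higher (45.8% against 9.27% of measured genes), with a list median of -0.49 on the log2 scale (-0.62 in the top rows, -0.57 in the bottom rows). Cmtm7, a MARVEL-domain membrane protein (chromosome 9, 114756836 to 114781856), ran from 0 through 18.6 to 137 CPM in upper cells and from 2.86 through 163 to 437 CPM in lower cells. No upper cell reached the lower median, 15 of 21 lower cells lay above every upper cell, and 3 lower cells lay low among the upper ones (wells B6, F6 and H6). Its summed level was 5.02-fold lower (interval 4.72 to 5.35).

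Arhgdib, which holds small GTPases inactive (chromosome 6, 136923655 to 136941899), had the most one-sided order of all lower genes. It ran from 1.32 through 58.0 to 235 CPM in upper cells and from 72.6 through 194 to 421 CPM in lower cells, and the upper cell was higher in only 6.35% of pairs. Of 24 upper cells 14 lay below every lower cell, and 19 still held 10 or more reads. The fold was 3.13 (interval 2.98 to 3.28). Apoe, Cmtm7 and Arhgdib are the 3 named genes whose fold fell by more than 1.5 times, to 2.18, 3.19 and 2.02, when each column name was read 1 place further along the header line. That reading places the BFUE cell of well A1, with Apoe at 545.6 CPM, in the upper gate. The part of this cell in the falls was not tested.

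S100a10, which pairs with annexin A2, ran from 0 through 22.2 to 70.4 CPM in upper and from 20.03 through 72.4 to 141 CPM in lower cells, 3.19-fold lower. Of 24 upper cells 8 lay below every lower cell. Clstn1 (3.65-fold lower), Flna, the actin cross-linker filamin A (3.11-fold), Anxa6 (3.09-fold), Anxa5 (2.67-fold) and Anxa2 (2.35-fold) went the same way, and Lcp1, the leukocyte plastin, was 3.48-fold lower. Arpc1b, of the Arp2/3 complex that branches actin, was 2.11-fold lower although no list held it. Other members had ratios closer to 1: Actb of 0.957, Pfn1 of 0.979 and Cfl1 of 0.949, but Actg1 of 0.732 and Msn of 0.742, and Ezr (1.13) and Lmna (1.26) lay on the other side of 1.

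Most measured signalling genes of leukocytes were lower. Of 15 measured members 10 were lower and 1 (Fyb) higher (66.7% lower against 9.27%), with a list median of -0.96 on the log2 scale (-1.11 in the top rows, -0.96 in the bottom rows). Ptprcap, which binds the phosphatase CD45, ran from 0 through 29.3 to 102 CPM in upper cells and from 42.8 through 124.5 to 246.5 CPM in lower cells, 2.89-fold lower. Every upper cell lay below the lower median and 14 lay below every lower cell. Rgs19, a regulator of G protein signalling, was 3.86-fold lower, with 10 of 24 and 18 of 21 cells at 10 or more reads. Laptm5, a lysosomal protein of blood cells, was 4.02-fold lower (6.17 in the top rows, 2.60 in the bottom rows) and Cyba, a subunit of the NADPH oxidase, 2.71-fold. Plcg2 was 8.90-fold lower, but 1 lower cell held 48.8% of its lower reads, and the fold was 3.28 in the top rows. Rac2 and Ptpn7 had ratios of 1.17 and 1.18. The summed mast cell and basophil markers given above were lower in the same direction, and their part in the result was not tested.

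Receptors and adhesion genes were mixed. Of 10 measured cytokine and TGF-beta receptors 5 were lower (50% against 9.27% of all measured genes) and 0 higher. The list median was -0.57 (log2), with 0.28 in the top rows and -1.07 in the bottom rows. Csf2ra, the GM-CSF receptor, stood at 2.20 against 11.1 CPM (5.07-fold lower), Tgfbr2 at 4.67 against 14.6 (3.13-fold lower, 1.33-fold in the top rows) and Ifngr1, an interferon gamma receptor, at 204 against 379 (1.86-fold lower). Most cells of both gates held Tgfbr2 at or near 0. Among the few that held it were upper well B8 (50.5 CPM) and lower well G6 (49.4 CPM), the lower cell with most reads. Of 9 integrins and adhesion genes 3 were lower (Cd9, Itgb2 and Cd63, the last with a ratio of 1.001 in the bottom rows) and 1 higher (Cd82), and Itgb1, Itga4 and Itga5 had ratios of 1.01, 1.16 and 1.26. The shares lower and higher were 33.3% and 11.1%, against 9.27% and 7.34% of all measured genes. The other lower genes named by the rule were Fnbp1, a membrane-curving protein (2.68-fold, but 5.70 in the top rows and 1.83 in the bottom rows), Taf4b (2.66-fold), Angptl4 (2.63-fold), Ass1, an enzyme of arginine synthesis (2.55-fold), Icam2 (2.50-fold), Dph2 (2.45-fold), Ss18 (2.44-fold), Syngr2 (2.22-fold) and Slc9a3r1 (2.19-fold). For Clstn1 the fold was 2.83 in the top rows and 5.66 in the bottom rows.

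**Figure D2:**
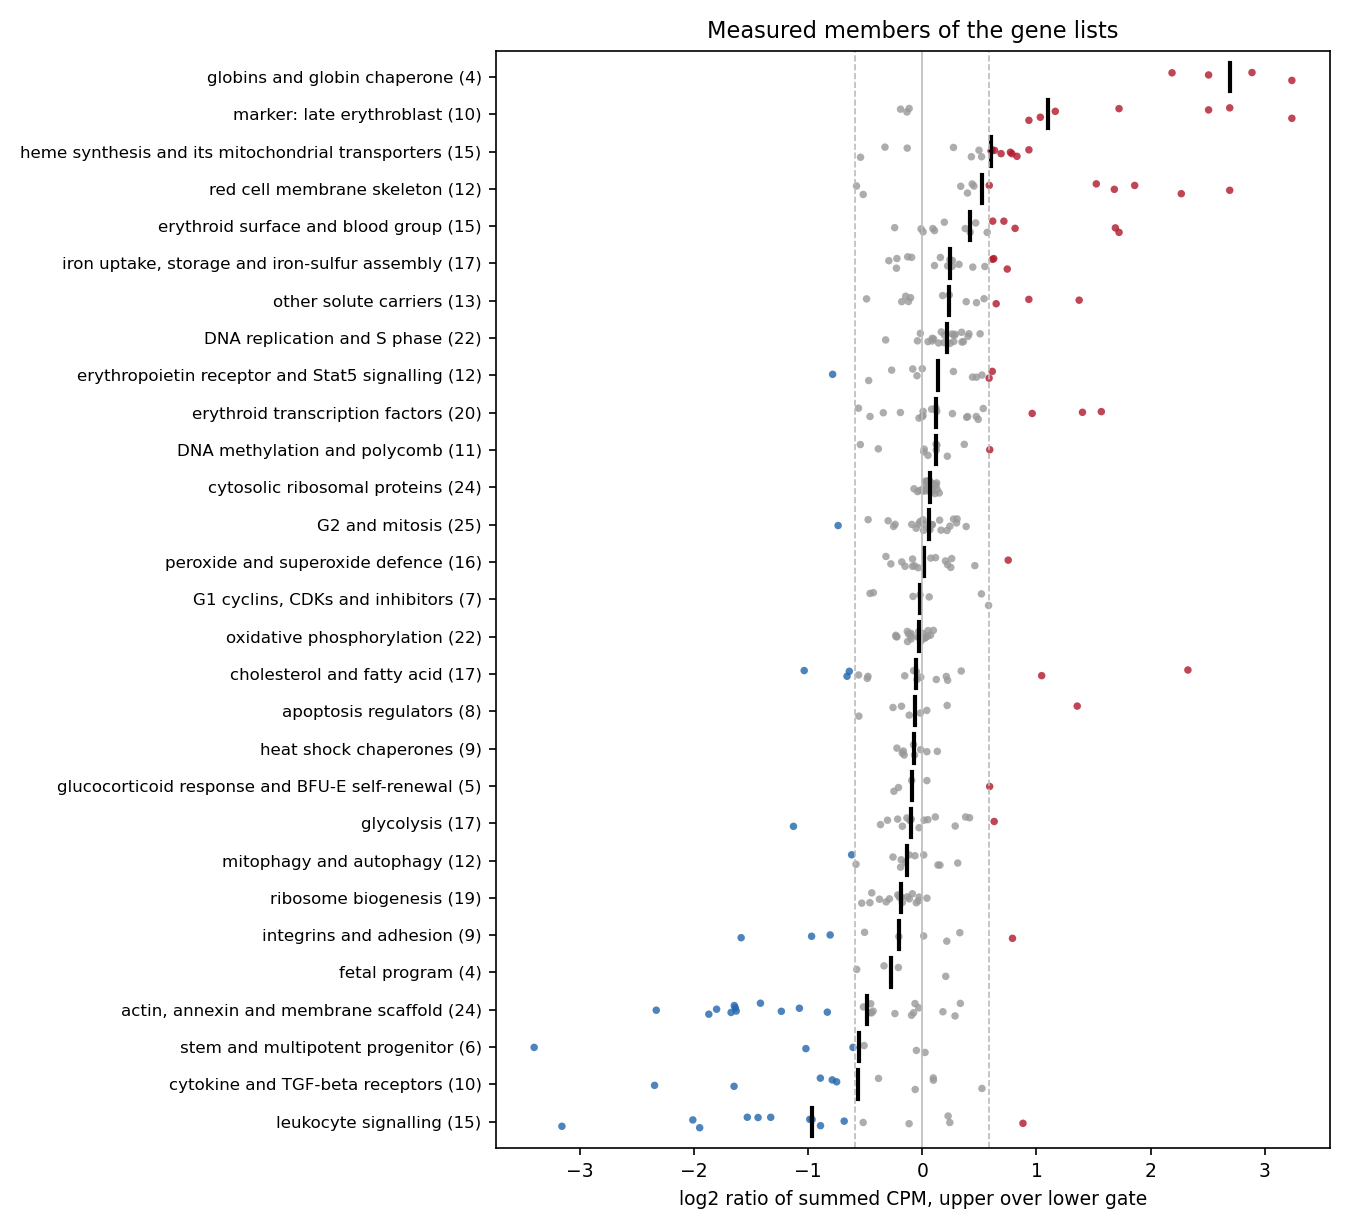
Log2 ratio of summed CPM, upper over lower gate, for each measured member (points) of the lists with 4 or more of them, numbers in brackets, with a bar at each list's median and dashed lines at 1.5-fold. Globins stand highest with a median of 2.70, heme synthesis at 0.60, actin scaffold at -0.49 and leukocyte signalling lowest at -0.96, while ribosomal proteins and oxidative phosphorylation sit close to 0.

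Genes past 2-fold were classed by the share of cells with 10 or more reads, after each cell was thinned to 1000000 reads. At that depth 10 reads are 10 CPM, so a shift in level across this cut can also change the share. A gene past 2-fold was called on or off when the shares of cells with 10 or more reads differed by 50 percentage points or more, and graded when 90% or more of the cells of both gates had 10 or more reads. Of the 212 higher genes 6 were on or off and 8 graded, and of the 256 lower genes 8 and 4. The other 198 and 244 met neither rule. The 12 graded and 14 on or off genes, named here for their class, were picked with their values in view where the naming rule did not include them.

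On or off toward the upper gate were Hba-a2 (16 of 24 thinned upper cells against 1 of 21 lower cells), Epb42 (21 and 7), Acbd4 (16 and 3), Aida (16 and 2), Pdia2 (15 and 2) and Alyref (22 and 8). Aida, which interacts with axin, ran from 0 through 15.2 to 39.2 CPM in upper cells and from 0 through 0 to 12.6 CPM in lower cells. Though it was low in all cells, 14 upper cells lay above every lower cell. Toward the lower gate they were Rftn1, raftlin (9 and 19), Anxa5 (7 and 17), Pik3cd, the leukocyte PI3-kinase subunit (9 and 20), Laptm5 (6 and 18), Pigh (5 and 17), Ulk3 (5 and 15), S1pr4, a sphingosine phosphate receptor (5 and 15), and Lrrfip1 (3 and 14). With 20 or more reads in place of 10, 6 genes in all were on or off, so membership of this class depends on the cut. Hba-a2 had reads in every upper cell (lowest 2.175 CPM), so its call is a shift in level across the cut.

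Graded genes toward the upper gate were Cldn13, Mgst3, Rgcc, A730089K16Rik, Nxpe2, Tnfrsf14, Gde1 and Slc43a3, and toward the lower gate Arpc1b, Crip1, Syngr2 and Gm15915. Nxpe2 ran from 115 through 323 to 812 CPM in upper cells and from 47.0 through 151 to 262 CPM in lower cells, 2.23-fold higher. All cells of both gates held it, and 17 of 24 upper cells lay above every lower cell, more than for Hba-a1. Syngr2, a synaptogyrin of vesicle membranes, ran from 34.4 through 138 to 389 CPM in upper cells and from 143 through 283 to 589.5 CPM in lower cells, with 12 upper cells below every lower cell. Rgcc, which binds cyclin-dependent kinase 1, ran from 74.1 through 252.5 to 557 CPM in upper and from 18.98 through 104 to 257.5 CPM in lower cells, with 9 lower cells below every upper cell.

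**Figure D3:**
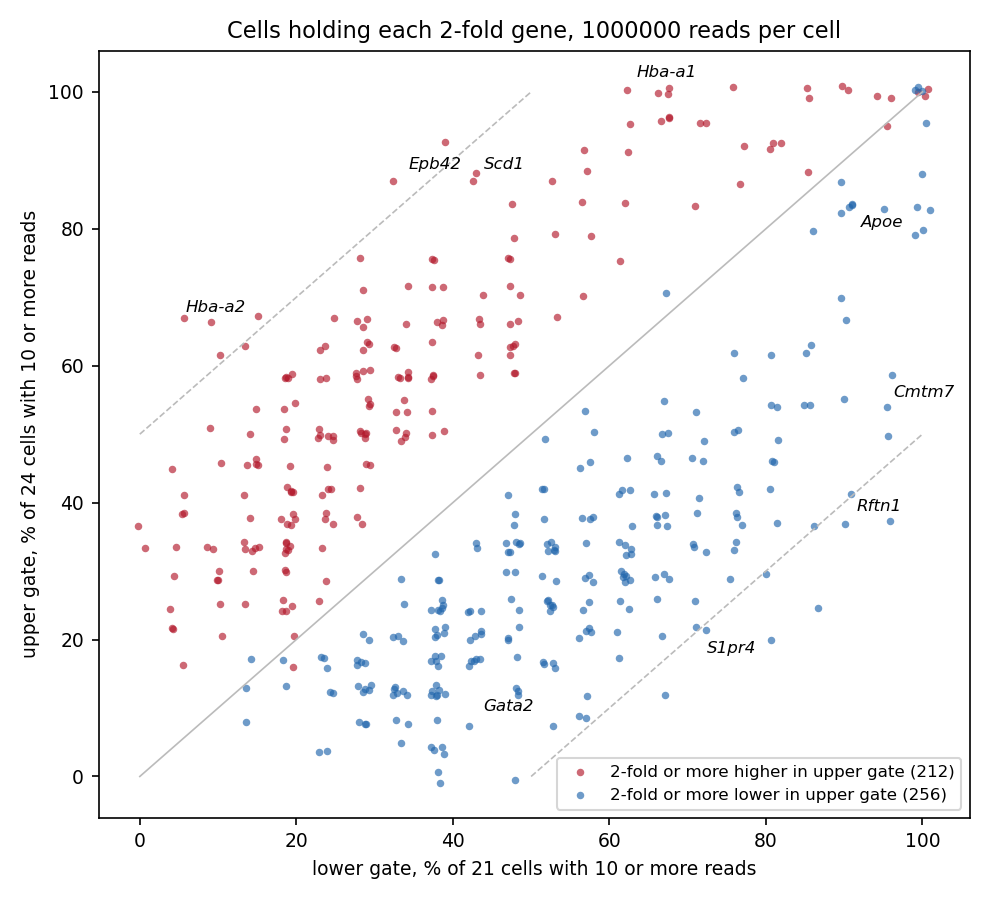
Percent of the 21 lower cells (x axis) and of the 24 upper cells (y axis) with 10 or more reads, every cell thinned to 1000000 reads, for the 212 higher and 256 lower genes past 2-fold, with up to 1 point of scatter added on each axis. Most genes lie between the dashed lines at 50 points of difference, and Hba-a2 and Epb42 lie above the upper one.

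Few genes of cell growth and division passed 1.5-fold at this step. Of all measured genes 7.34% were 1.5-fold or more higher and 9.27% lower. Of 22 measured genes of DNA replication and S phase 0 passed 1.5-fold, with Ccne1, cyclin E1, at 1.42-fold and Rrm2 at 1.32-fold. Their median log2 ratio was 0.22, and 0.13 to 0.34 over the alternative settings, a small shift toward the upper gate. Of 25 genes of G2 and mitosis 1 (Cenpe) was lower, with a median of 0.06 (-0.16 in the top rows, 0.17 in the bottom rows). The 24 cytosolic ribosomal protein genes ranged from 0.951 (Rpl11) to 1.11 (Rps19), with a median of 0.07. Of 19 ribosome biogenesis genes 0 passed 1.5-fold, and Myc had a ratio of 0.871. The median of that list was -0.19, and -0.19 to -0.15 over the alternative settings, a small shift toward the lower gate. Of 22 oxidative phosphorylation genes 0 passed, at -0.03. Of 9 heat shock chaperones 0 passed, at -0.08. In glycolysis 1 of 17 was higher, Pklr, the pyruvate kinase of red cells and liver (1.55-fold), and 1 lower, Pfkp, the platelet form of phosphofructokinase (2.18-fold), at -0.10.

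The remaining lists had few members past 1.5-fold, beside 7.34% higher and 9.27% lower among all measured genes. Of 16 peroxide and superoxide defence genes 1 was higher, Gclm of glutathione synthesis (1.68-fold). Among 13 other solute carriers 3 were higher, Slc46a3 (2.59-fold), Slc43a1 (1.91-fold) and Slc6a9 (1.57-fold). In the bottom rows the ratios of Slc46a3 and Slc6a9 were 0.996 and 0.994. Among 8 apoptosis regulators Bcl2l11, which encodes the death protein Bim, was 2.56-fold higher, although 1 lower cell held 50.9% of its lower reads. Per1 was the 1 higher gene of 5 for the glucocorticoid response, Cbx2 of 11 for DNA methylation and polycomb, and Btg2 of 3 immediate early genes, with list medians of -0.09, 0.12 and 0.12. A single upper cell held 52.0% of the upper reads of Btg2. Optn was the 1 lower gene of 12 for mitophagy (8.33%, near the share of all measured genes). Of 7 G1 genes and of 4 fetal genes 0 passed.

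Single cells were also placed on 2 scores, each the mean of log2 of CPM plus 10 over listed genes after thinning. The erythroid score, over 58 genes of the heme, globin, skeleton and surface lists, ran from 5.67 through 6.28 to 7.25 in upper cells and from 5.45 through 5.84 to 6.19 in lower cells. Of the upper cells 10 of 24 fell inside the lower range, 16 of 21 lower cells fell inside the upper range, and the upper cell was higher in 89.9% of pairs. The score of the scaffold and leukocyte lists, over 55 genes, ran from 4.49 through 5.09 to 5.56 in upper cells and from 5.10 through 5.59 to 5.98 in lower cells, with the upper cell higher in 6.15% of pairs. Here 12 of 24 upper cells fell inside the lower range and 9 of 21 lower cells inside the upper one. Since the lists were chosen with earlier results of these data known, the order of the gates on both scores is a description.

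Within a gate, cells with a higher erythroid score tended to have a lower scaffold score. Spearman's rank correlation was -0.39 over the 21 lower cells and -0.53 over the 24 upper cells, given as a description, since the scores of a cell share its library and are shares of 1 total. The upper cell of well A8 had the highest erythroid score of the gate (7.25) and the lowest scaffold score (4.49). The median scores of the neighbouring gates were 5.30 (BFUE) and 6.70 (CFUE) for the erythroid lists and 6.59 and 4.92 for the scaffold lists, so both intermediate medians lay between them. Of the 23 CFUE cells 22 reached the thinned depth. The S phase score was higher in the upper cell in 65.1% of pairs and the score of G2 and mitosis in 44.6%.

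**Figure D4:**
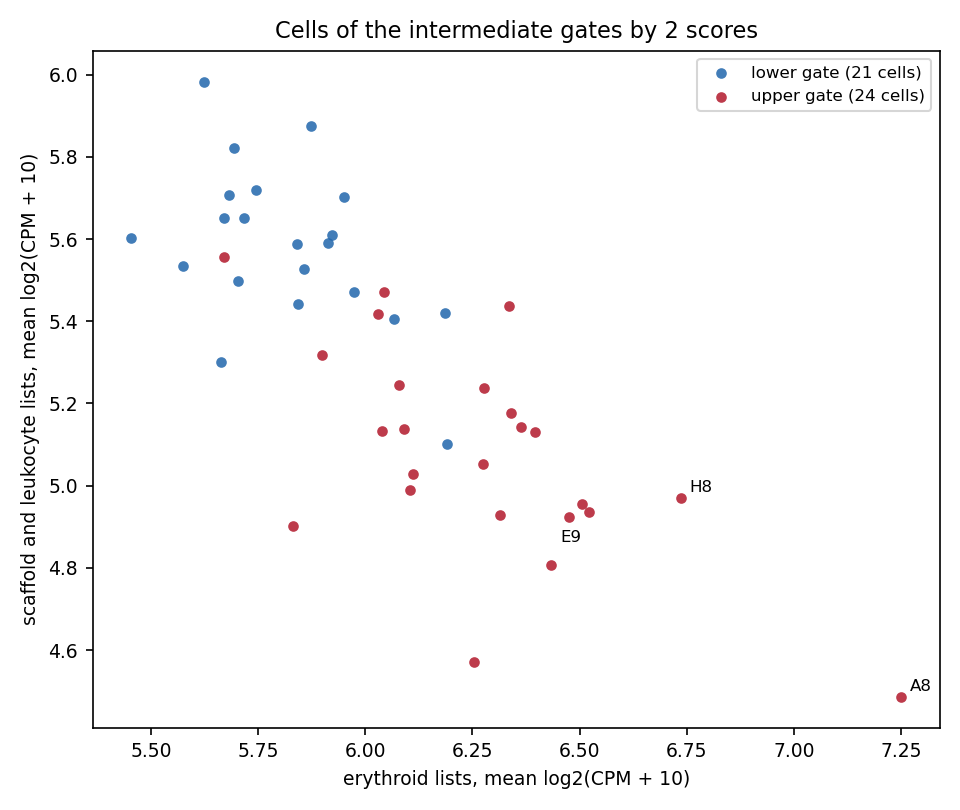
Erythroid score (x axis) against scaffold and leukocyte score (y axis), both means of log2(CPM + 10), for each cell of the lower (21) and upper (24) gates. The gates overlap in the middle, and the upper cells of wells A8 and H8 lie farthest right, with A8 at 7.25 and 4.49.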

How the data were processed

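Smart-seq2 read counts of 96 wells of 1 plate, each with 1 sorted cell, were used. Per the submitters' processing notes the reads were aligned with STAR 2.4 to GRCm38 and assigned to genes by featureCounts. What the authors deposited are raw counts, whole numbers without normalization. The featureCounts version, the annotation, strand and the handling of shared reads are details not given in the sources used here. In the deposited header there is an empty cell more than in the data lines, so names and columns were matched in order, leaving 0 columns without a sample.

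In the lower gate 3 wells with 10596 to 16644 reads were left out. Doublets were not called, since each well was sorted as 1 cell. Of 49466 identifiers 99.7% are in GENCODE M21, which gave coordinates (1-based). For 76 symbols with several identifiers only the one with more reads was kept, and 0 columns were duplicates. Counts were summed per gate and given as CPM with exact Poisson intervals. Ratios have exact conditional binomial intervals and shares of cells Clopper-Pearson intervals, all at 95%. The intervals of CPM and ratios are for counting error only. Those of shares treat the cells of a gate as independent draws and do not measure spread between animals. A sum of 0 stood at 3 counts over the gate, and no ratio was given with both gates at or under it. Cells were thinned to 1000000 reads, the largest depth set that every cell of both gates reached.

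The comparison, the 37 lists (8 of them markers) and the rule for named genes were chosen with earlier results of these data known. The rule takes the 15 largest and 15 smallest ratios, the 10 genes each way with the most one-sided percent of pairs, the stained genes, 4 markers (Epb42, Hba-a1, Gata2 and Apoe) and up to 4 members per list. Markers and members need not meet its filters. Other list members were named after their values were seen. Some genes that the rule or lists include are not reported here. The ratio script was tested on simulated Poisson sums for this comparison over 7807 genes, of which 98.5% of 67 genes at 2-fold and 89.6% of 67 at 1.5-fold lay within their interval.

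As alternatives, gates were compared by the average of their cells' CPM, with edgeR 4.0.16 (TMM) or DESeq2 1.42.0 scaling in R 4.3.3, with other filters on low genes, parts of the plate, globins out of totals, thinned cells, all wells, 20 reads per cell and cells left out. The scripts ran in Python 3.11.15 with scipy 1.17.1, numpy 2.4.6, matplotlib 3.10.9 and pandas 2.3.3.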

Additional observations from a re-analysis of the deposited data

How the results depend on the processing

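Each gate is 1 sample, so values were recomputed with no test. No paired analysis was possible because no label ties cells of both gates to 1 animal or pool. Of 15 alternatives 3 were chosen after seeing the data (without upper wells A8, E9 and H8, without lower well G6, and header names read 1 column on). In the 12 that gave values for single genes, none of 42 named genes changed direction. For genes picked by their ratio or percent of pairs, this was partly fixed in advance. Their filters already asked for 1 direction in top and bottom rows, 2-fold in the mean over cells, and no cell above 25% of reads. The TMM factors of 0.996 (upper) and 1.004 (lower) could hardly move a ratio. The count of 212 higher genes became 1992 with no filter on low genes, 32 at 50 CPM, 409 in the top rows (A to D) and 421 in the bottom rows (E to H). That of 256 lower genes became 2091, 33, 462 and 473. The 14 on or off genes became 2 at 50 CPM, 60 in the top rows, 83 in the bottom rows and 6 at 20 reads. The 12 graded genes became 31 and 25 in the top and bottom rows. Higher heme genes (8) became 5 in the bottom rows and 4 without wells A8, E9 and H8. At 50 CPM the 6 higher skeleton genes became 3, the 11 lower scaffold genes 7 and the 10 lower leukocyte genes 5, which were 17 with no filter. Filters change how many genes are counted; for the other settings the cause was not tested. On or off and graded genes were not computed for all 24 wells or for shifted names. The sign of 12 list medians differed in at least 1 setting, that of the cytokine receptors included.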

Other observations

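Some named genes stood higher in an intermediate gate than in both the BFUE and CFUE gates, all in CPM of summed reads, given here as values with no test. Taf4b stood at 10.4 (BFUE), 52.0 (lower), 19.6 (upper) and 6.21 CPM (CFUE). Angptl4, a lipase inhibitor, stood at 69.9, 125, 47.6 and 43.0 CPM in the same order, and Dph2, of diphthamide synthesis, at 55.5, 99.1, 40.4 and 40.6 CPM. The upper gate was the highest for Abcb4, at 45.7, 34.0, 76.8 and 47.6 CPM, and for Tprgl, at 24.6, 30.6, 99.4 and 71.4 CPM. Scd1 stood at 3.09, 14.8, 74.1 and 71.0 CPM, so its upper and CFUE levels were close. The choice of these genes was made with their values in view.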
